A study of Mus musculus with 12 samples.

Results

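The MYC and MAX network was followed in mouse B16F10 melanoma cells treated with 5-aza-2'-deoxycytidine (DAC), sulforaphane (SFN) or both drugs. The network was taken as 10 genes chosen by symbol: Myc, Mycn, Mycl, Max, Mxd1, Mxd3, Mxd4, Mxi1, Mnt and Mlx, of the 24421 gene symbols in the count data. All 10 had a row, and 8 of them passed the filter on low counts that left 11638 genes. B16F10 is a single transplantable melanoma line, and the cells were grown in wells without other cell types. DAC traps and depletes DNA methyltransferases, and SFN is an isothiocyanate of cruciferous vegetables that activates the antioxidant response. The control cells received DMSO, the solvent of DAC. DAC cells received 25 nM DAC for 72 h, SFN cells received SFN for the last 48 h, and the combination treatment (DAC+SFN) was DAC for 72 h with SFN for the last 48 h. By the labels the SFN dose was 5 nM for SFN alone and 5 µM in the combination treatment. The methods of the study give the micromolar dose in both cases, so the labels leave the dose of SFN alone uncertain in every comparison of SFN with the combination. Each of the 4 groups had 3 replicates, which carry the same numbers in each group. The methods of the study describe the repeats of these treatments as independent and biological, while the labels give the numbers only.

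MYC proteins activate transcription as dimers with MAX, which bind the E-box CACGTG in promoters of genes for ribosome production, metabolism and cell growth. The MXD proteins, MXI1 and MNT also bind MAX, and these dimers occupy the same E-boxes but recruit SIN3 and histone deacetylases, so they oppose MYC. MLX is a MAX-like partner that pairs with MondoA, ChREBP, MNT and some MXD proteins. Cells that divide tend to hold more MYC, and most MXD genes are known from cells that leave the cell cycle, with Mxd3 as the member known from S phase.

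The E-box that these proteins bind was also found in promoters of network genes. In RefSeq promoters of build GRCm38.p6 (250 bases before to 50 after each transcription start), 9 of the 10 genes matched, with 11 promoters. The gene without a match was Myc, so its promoter was not examined for any of the motifs below. The E-box CACGTG, which reads the same on both strands, was present in 4 of these 11 promoters, and in 7.15% of the 32851 promoters of all genes. The 4 stretches are shown because Mxd4 rose and Mnt fell in the counts while Max and Mlx did not pass the test. Each is written 5′ to 3′ on the strand of its gene, with the E-box in capitals. They are chr5:34187912-34187941 (minus strand) for Mxd4, chr11:74830789-74830818 (plus strand) for Mnt, chr11:101087238-101087267 (plus strand) for Mlx and chr12:76962234-76962263 (minus strand) for Max.
Mxd4: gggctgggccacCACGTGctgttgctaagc
Mnt: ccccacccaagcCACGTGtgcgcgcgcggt
Mlx: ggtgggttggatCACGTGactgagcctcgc
Max: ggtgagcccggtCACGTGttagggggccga
The first bases of these E-boxes lay 219, 123, 40 and 3 bases before the transcription start, in the same order. The promoter of Mxd3, the member with the largest fold change, held no E-box and 8 copies of the GC box GGGCGG. It is shown here as a stretch of 110 bases upstream of the RefSeq start (chr13:55329767-55329876, minus strand), with the GC boxes in capitals, where adjoining copies share a base. The GENCODE M21 gene, which ends at 55329823, starts farther upstream than this RefSeq transcript, so part of the stretch lies within the gene as annotated there.
Mxd3: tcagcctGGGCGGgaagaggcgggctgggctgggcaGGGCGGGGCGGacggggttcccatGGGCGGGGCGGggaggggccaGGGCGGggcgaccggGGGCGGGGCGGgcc
The GC box on either strand was present in 9 of the 11 promoters of the network and in 35.7% of all promoters. The core of the antioxidant response element, TGACNNNGC on either strand, was present in 5 of the 11 promoters, those of Max, Mlx, Mxd1, Mxd3 and 1 of the 3 of Mxi1, and in 12.4% of all promoters. The promoters of the network held between 14 and 49 CpG dinucleotides, the sites that DNA methyltransferases act on, and the median of all promoters was 7. The lowest of these, in Mycn, exceeded 63.7% of all promoters, and the highest, in Mxi1, exceeded 99.0%. Whether the shares of the 3 motifs differ from those of promoters with like CpG content was not tested. The motif matches describe the sequence only, since neither binding nor methylation was measured.

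The libraries held 15880957 to 27291436 counted reads. Levels are given in CPM, the share of a library's counts on a gene on a scale whose total is the same for each library, after TMM scaling. A gene was called when its p-value from the quasi-likelihood F-test of edgeR was under 0.05 after Benjamini-Hochberg adjustment over all 11638 genes. The 12 samples shared a model in which the replicate number was a blocking factor. All 7 melanocyte markers (Pmel, Dct, Tyr, Tyrp1, Mlana, Mitf and Sox10) were present in every sample and summed to between 21022 and 30140 CPM. With the combination treatment, 2 of the 7 were called down, Pmel (-0.36 on the log2 scale, adjusted p = 0.0129) and Tyrp1 (-0.17, adjusted p = 0.0478 by edgeR), both named after their values were seen. In this comparison 14.7% of all genes were called down. Of 8 markers of other cell types, Ptprc, Cd3e, Adgre1, Epcam and Krt5 never exceeded 2 counts per library. Lyz2, a myeloid marker, was at 1.64 ± 0.845 CPM in control, 2.03 ± 0.700 in DAC, 3.37 ± 1.74 in SFN and 3.35 ± 1.54 CPM in combination samples (SD, n = 3). It was called up with the combination treatment (log2 fold change 1.02, adjusted p = 0.0289) and not with SFN (1.00, adjusted p = 0.0535 by edgeR), and was named after its values were seen. The summed level of the 8 ranged from 16.7 to 317 CPM in control and from 20.9 to 367 CPM in DAC samples. It ranged from 21.0 to 251 CPM in SFN samples and from 29.2 to 256 CPM in combination samples, and Adgre1 was at 0 in all 12 libraries. Most of that sum was Col1a1, which had its lowest count of each group in replicate 2 and its highest in replicate 3. The part of these marker values in the results was not tested.

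The single drugs called few members of the network and the combination treatment called 4 of the 8. With DAC, 0 of 8 were called by edgeR, where 0.18% of all genes were, and 1 had an unadjusted p under 0.05, as 10.1% of all genes did. DESeq2 also called 0 of 8. With SFN, 1 of 8 was called, where 13.9% of all genes were. The combination treatment gave calls for 4 of 8, 1 up and 3 down, where 31.6% of all genes were called. Compared to DAC, the combination called 1 member up and 2 down, where 16.1% of all genes were called, 9.55% up and 6.6% down. Compared to SFN it called 1 up and 1 down, where 1.61% were called, 0.937% up and 0.67% down. At the threshold of the study, which also asks for a fold change above 2, 0 of 8 members were called in each comparison. This threshold was passed by 0.0344% of all genes with DAC, 1.28% with SFN, 2.66% with the combination, 0.928% for the combination compared to DAC and 0.112% for it compared to SFN. The shifts in the network were thus below 2-fold, and all of the called members were antagonists of MYC. Antagonists made up 5 of the 8 tested members. By samples, 0 of 8 members lay apart from control with DAC (4.09% of all genes above, 4.34% below), and with SFN 0 lay above and 1 below (10.9% of all genes above, 9.93% below). In bulk RNA, fewer cells with a transcript and less of it per cell cannot be told apart.

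**Figure D1:**
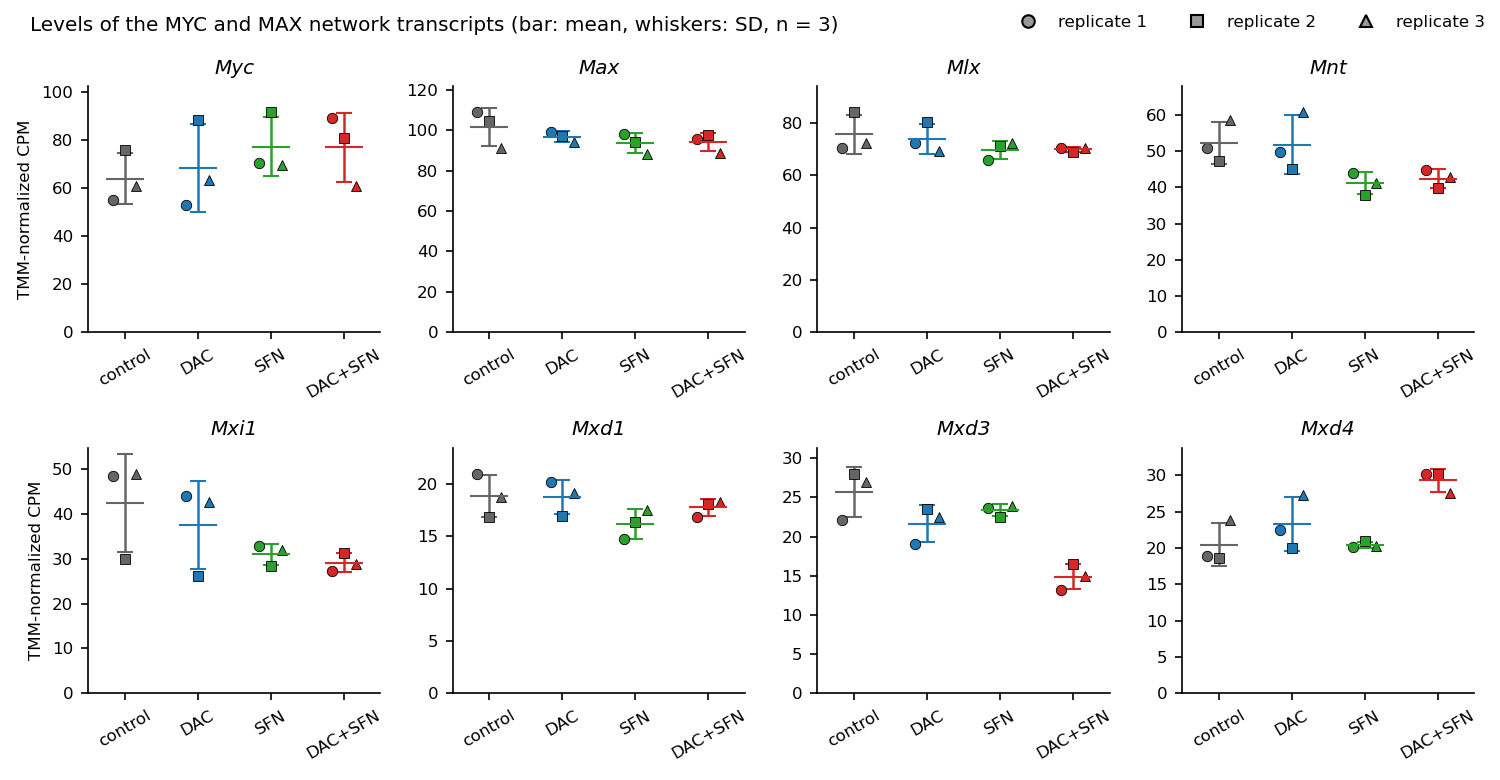
TMM-normalized CPM (y axis, from 0) of the 8 tested members in each sample, by group (x axis). Points are samples with the replicate number as the shape, bars are means and whiskers are SD (n = 3). Mxd3 lay lowest and Mxd4 highest in the 3 combination samples, and Mnt was lower in the SFN and combination samples than in control.

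Mxd3 and Mxd4, which encode a pair of MXD repressors, changed in opposite directions with the combination treatment. Mxd3 (Entrez Gene 17121, chromosome 13 from 55325168 to 55329823 in mm10, minus strand) was at 22.1, 28.0 and 26.9 CPM in control replicates 1, 2 and 3. It was at 19.0, 23.5 and 22.5 CPM with DAC and at 23.7, 22.5 and 23.9 CPM with SFN. In combination samples it was at 13.2, 16.5 and 14.9 CPM. Thus all 3 combination samples lay below all 9 others, while the other groups overlapped. The mean fell from 25.7 ± 3.15 CPM in control to 14.9 ± 1.61 CPM (SD, n = 3), which is -0.78 on the log2 scale (SE 0.09, adjusted p = 3.40e-05 by edgeR), or -41.9%. In 14.3% of all genes the combination samples lay below the control samples without overlap, and in the network this held for Mxd3 and Mnt.

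The fall of Mxd3 was also present against each drug alone, and in both comparisons Mxd3 lay below without overlap, as 8.98% of all genes did compared to DAC and 6.86% compared to SFN. Compared to DAC it was -0.54 on the log2 scale (SE 0.09, adjusted p = 0.00177) and compared to SFN it was -0.66 (SE 0.09, adjusted p = 0.0125 by edgeR). With DAC alone the log2 fold change was -0.25 (SE 0.09, adjusted p = 0.359), lower in 3 of 3 replicates, and with SFN alone it was -0.13 (SE 0.09, adjusted p = 0.369), lower in 2 of 3. Whether the effect of the drugs together differed from the sum of the single effects was tested by the interaction. For Mxd3 the interaction was -0.41 (95% interval -0.69 to -0.13, unadjusted p = 0.00648, adjusted p = 0.847 by edgeR), so it did not pass. Of the 8 members, 2 had an unadjusted p under 0.05 for the interaction, where 5.87% of all genes did, and edgeR and DESeq2 each called 0. The comparison with SFN lost its call without SFN replicate 1, SFN replicate 3 or combination replicate 1 (adjusted p = 0.135, 0.149 and 0.0795). Without the replicate block the adjusted p of edgeR was 0.00672 against control, 0.0881 against DAC and 0.288 against SFN.

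Mxd4 (Entrez Gene 17122, chromosome 5 from 34173883 to 34187720, minus strand) was at 18.9, 18.6 and 23.9 CPM in control and at 22.4, 20 and 27.3 CPM with DAC. It was at 20.1, 20.9 and 20.3 CPM with SFN and at 30.2, 30.2 and 27.5 CPM with the combination treatment. The combination samples were the highest of all 12, although DAC replicate 3, at 27.3 CPM, came close to the lowest of them. The mean rose from 20.5 ± 2.97 to 29.3 ± 1.54 CPM (SD, n = 3), or 0.53 on the log2 scale (SE 0.11, adjusted p = 0.00203 by edgeR), which is 44.1% more. The combination samples lay above control without overlap in 15.1% of all genes, and in the network in Mxd4 alone. Mxd4 was also the member above DAC and above SFN without overlap, as 9.19% and 5.23% of all genes were. Compared to SFN the log2 fold change was 0.52 (SE 0.11, adjusted p = 0.0318) and compared to DAC it was 0.34 (SE 0.11, adjusted p = 0.0441 by edgeR). It was 0.19 (SE 0.11, adjusted p = 0.589) with DAC alone and 0.01 (SE 0.11, adjusted p = 0.979) with SFN alone. The interaction was 0.33 (95% interval 0.00 to 0.65, unadjusted p = 0.0472, adjusted p = 0.852). The comparison with SFN was not called without SFN replicate 1 or 3 or without combination replicate 1 or 2 (adjusted p from 0.0961 to 0.287). That with DAC was not called without control replicate 1, DAC replicate 1 or 2, SFN replicate 1 or combination replicate 1 or 2 (adjusted p from 0.0603 to 0.202) or when only those groups were fitted (adjusted p = 0.137). Without the replicate block the adjusted p was 0.0242 against control, 0.338 against SFN and 0.209 against DAC.

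The ratio of these 2 antagonists within a sample does not depend on library scaling. The reads on Mxd4 per read on Mxd3 were 0.854, 0.665 and 0.887 in control replicates 1, 2 and 3. They were 1.18, 0.851 and 1.21 in DAC samples, 0.847, 0.928 and 0.849 in SFN samples and 2.28, 1.83 and 1.84 in combination samples. The mean ratio was 0.802 ± 0.120 in control, 1.08 ± 0.201 in DAC, 0.875 ± 0.0462 in SFN and 1.98 ± 0.255 in combination samples (SD, n = 3). This ratio was formed after the values of both genes were seen and was not tested.

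In the annotation, Mxd3 shares 105 exon bases with Prelid1, Mxd4 shares 514 with Gm42846 and Mxi1 shares 194 with Gm10197, each on the other strand. The strand setting of the counting is not given in the sources used here. Prelid1, a mitochondrial lipid transfer gene, fell by 0.30 on the log2 scale with the combination treatment (SE 0.06, adjusted p = 0.00195 by edgeR) and its part in the result for Mxd3 was not tested.

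**Figure D2:**
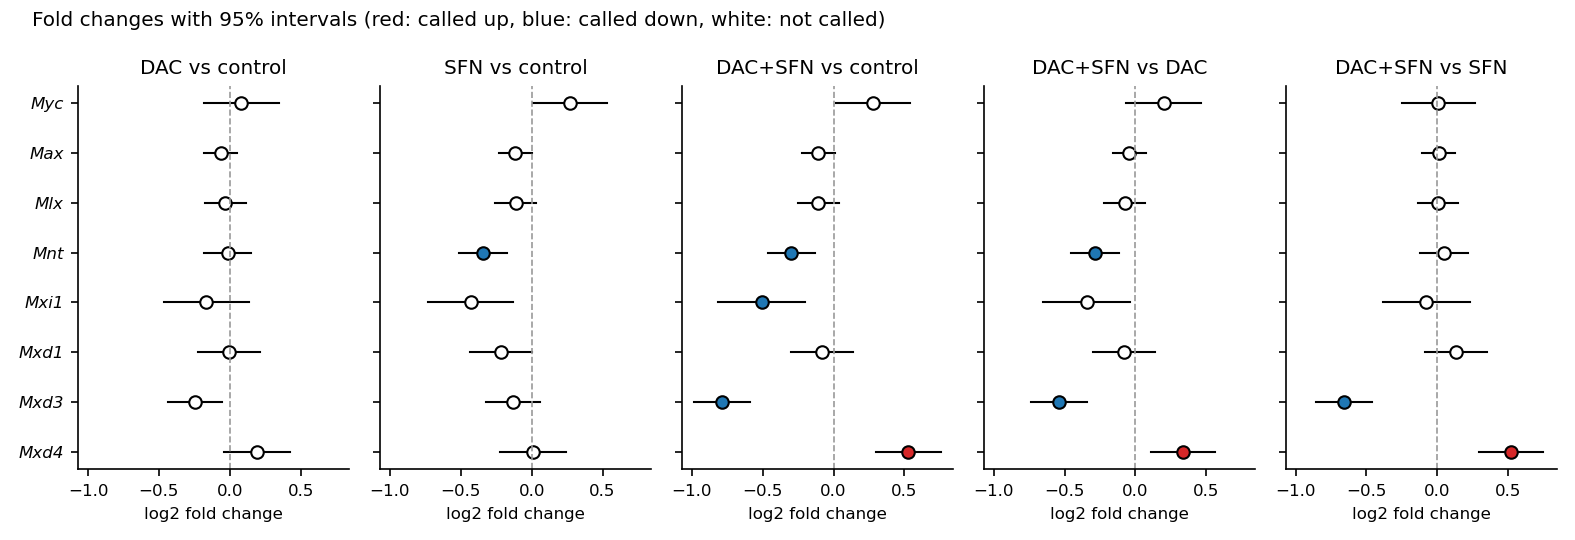
Log2 fold changes (x axis) of the 8 members in 5 comparisons, with 95% intervals as lines. Filled points passed the test (red up, blue down) and open points did not, with Mxd3 at -0.78 and Mxd4 at 0.53 in DAC+SFN compared to control as the extremes.

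Mnt and Mxi1 were the other antagonists that were called, Mnt with SFN and with the combination treatment and Mxi1 with the combination treatment. Mnt (Entrez Gene 17428, chromosome 11 from 74830920 to 74845725, plus strand) encodes the most widely expressed MAX-bound repressor. It was at 51.0, 47.4 and 58.7 CPM in control and at 49.7, 45.0 and 60.8 CPM with DAC. It was at 44.1, 38 and 41.3 CPM with SFN and at 44.8, 39.7 and 42.8 CPM with the combination treatment. All 6 samples with SFN lay below all 6 without it. With SFN alone Mnt fell by 0.34 on the log2 scale (SE 0.08, adjusted p = 0.00934 by edgeR), that is -21.1%, and 5.65% of all genes were called down in this comparison. On top of DAC, in a comparison that shares no sample with the former, it fell by 0.28 (SE 0.08, adjusted p = 0.0246). Both comparisons came from the same model with shared replicate terms, so they were not independent. The combination compared to control gave -0.30 (SE 0.08, adjusted p = 0.0103). DAC alone gave -0.01 (95% interval -0.18 to 0.15, adjusted p = 0.973) and DAC on top of SFN gave 0.05 (95% interval -0.12 to 0.21, adjusted p = 0.812 by edgeR). The call with SFN alone was lost without SFN replicate 3 (adjusted p = 0.0720), and that on top of DAC without DAC replicate 3, combination replicate 1 or combination replicate 3 (adjusted p from 0.0513 to 0.123) and when only those groups were fitted (adjusted p = 0.111). Without the replicate block none of the 3 calls held (adjusted p from 0.111 to 0.230).

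Mxi1 (Entrez Gene 17859, chromosome 19 from 53310518 to 53375810, plus strand), also called Mxd2, varied with the replicate number. Its levels were 48.3, 29.9 and 48.8 CPM in control and 43.8, 26.2 and 42.6 CPM with DAC. They were 32.7, 28.3 and 31.9 CPM with SFN and 27.2, 31.3 and 28.8 CPM when the drugs were combined. Replicate 2 was far below the others in control and DAC and lay close to the samples with SFN, so that the groups overlapped. Mxi1 fell with the combination treatment by 0.51 on the log2 scale (SE 0.14, adjusted p = 0.0142 by edgeR), with log2 differences of -0.83, 0.06 and -0.76 in replicates 1, 2 and 3. This call was lost without control replicate 1, control replicate 3 or combination replicate 1 (adjusted p from 0.0584 to 0.105) and without the replicate block (adjusted p = 0.103). With SFN alone the log2 fold change was -0.43 (SE 0.14, adjusted p = 0.0557), lower in 3 of 3 replicates, and on top of DAC it was -0.34 (SE 0.14, adjusted p = 0.119 by edgeR). The value on top of DAC ranged from -0.58 to -0.20 with 1 sample left out, and it passed without combination replicate 2 (adjusted p = 0.00702) and without a count filter (adjusted p = 0.0205). With SFN alone Mxi1 passed with DESeq2 (adjusted p = 0.0178). By edgeR it passed with DESeq2's size factors (adjusted p = 0.0498), without a count filter (adjusted p = 0.00358) and with only the groups compared (adjusted p = 0.0030). It also passed in 6 of the 12 fits without 1 sample, but not without the replicate block (adjusted p = 0.317). The call with SFN alone thus depended on the processing.

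**Figure D3:**
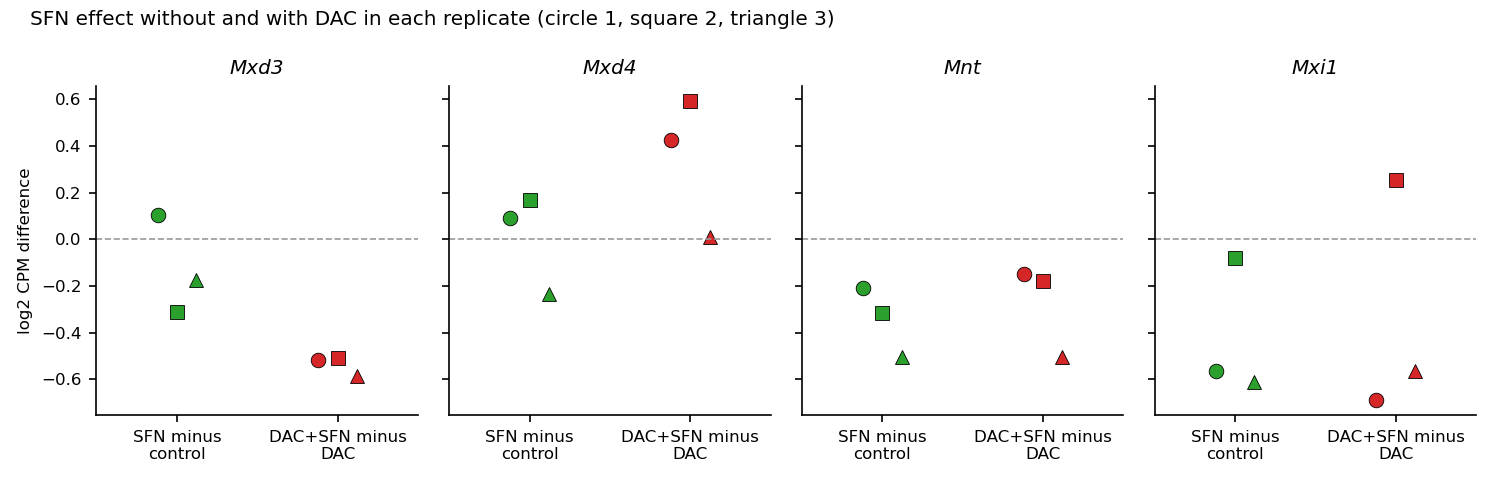
Log2 CPM differences (y axis) of SFN minus control and of DAC+SFN minus DAC in replicates 1 to 3 (circle, square, triangle) for Mxd3, Mxd4, Mnt and Mxi1. Mnt was below 0 in 6 of 6 differences, and Mxd3 was lower by 0.51 to 0.59 in all 3 replicates when SFN was added to DAC.

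Mxd1 (Entrez Gene 17119, chromosome 6 from 86647042 to 86669161, minus strand), the MXD gene first known from differentiating cells, passed in no comparison. The control samples lay between 16.9 and 20.9 CPM and the DAC samples between 16.9 and 20.1 CPM. The SFN samples lay between 14.7 and 17.5 CPM and the combination samples between 16.8 and 18.3 CPM. Its log2 fold change was -0.22 with SFN (95% interval -0.43 to 0.00, adjusted p = 0.177) and -0.08 with the combination treatment (95% interval -0.30 to 0.13, adjusted p = 0.562 by edgeR). Of the 5 antagonists, then, 3 fell, 1 rose and 1 did not pass with the combination treatment.

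Myc, the activator of the network, did not pass the test in any comparison of the model of all samples. Myc (Entrez Gene 17869, chromosome 15 from 61985391 to 61990374, plus strand) was at 55.2, 75.8 and 60.9 CPM in control and at 53.0, 88.6 and 63.4 CPM with DAC. It was at 70.4, 91.6 and 69.8 CPM with SFN and at 89.2, 80.8 and 61.1 CPM with the combination treatment. Replicate 2 was the highest sample of control, DAC and SFN, and the groups overlapped. With SFN the log2 fold change was 0.27 (95% interval 0.01 to 0.53, adjusted p = 0.156 by edgeR), higher in 3 of 3 replicates. With the combination treatment it was 0.28 (95% interval 0.02 to 0.54, adjusted p = 0.0960), with log2 differences of 0.69, 0.09 and 0.00 in replicates 1, 2 and 3. Without combination replicate 1 this value was 0.04. Myc passed with SFN when only SFN and control were fitted (adjusted p = 0.00589) or without combination replicate 1 (adjusted p = 0.0156), and with the combination when genes were not filtered (adjusted p = 0.0380) or without combination replicate 2 or 3 (adjusted p = 0.0429 and 0.0196 by edgeR). With DAC the log2 fold change was 0.08 (95% interval -0.18 to 0.34, adjusted p = 0.865).

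The paralogs of Myc were near silent. Mycn (Entrez Gene 18109, chromosome 12 from 12936093 to 12941914), the MYC gene of neural tumors, had 5 counts over all 12 libraries and at most 2 in any of them. Mycl (Entrez Gene 16918, chromosome 4 from 122995652 to 123002485) had 17 counts and at most 4 in any library. By group, Mycl had 1, 3, 5 and 8 counts over the 3 libraries of control, DAC, SFN and the combination treatment. Neither gene passed the filter, and a change in them was not detectable at this depth. A library with 0 counts allows a level of up to 0.11 to 0.19 CPM, which is 3 counts in the largest and in the smallest library, for counting error only.

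The shared partners Max and Mlx did not pass the test in any comparison. Max (Entrez Gene 17187, chromosome 12 from 76937269 to 76962201, minus strand) had means of 102 ± 9.33 CPM in control and 96.8 ± 2.54 CPM in DAC samples, and of 93.5 ± 4.99 CPM in SFN samples and 94.1 ± 4.57 CPM in combination samples (SD, n = 3). Its log2 fold change was -0.12 with SFN (95% interval -0.23 to 0.00, adjusted p = 0.174) and -0.11 with the combination (95% interval -0.23 to 0.01, adjusted p = 0.147 by edgeR). Mlx (Entrez Gene 21428, chromosome 11 from 101087277 to 101092207, plus strand) was at 75.7 ± 7.38, 74.1 ± 5.75, 69.9 ± 3.51 and 70.1 ± 0.995 CPM in the same order. The log2 fold change of Mlx was -0.11 with SFN (95% interval -0.26 to 0.03, adjusted p = 0.283) and -0.11 with the combination (95% interval -0.25 to 0.03, adjusted p = 0.237). The exons of Mlx share 385 bases with Psmc3ip on the other strand. Psmc3ip fell by 0.46 with the combination treatment (SE 0.13, adjusted p = 0.0121 by edgeR), and its part in the values of Mlx was not tested.

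Levels of different genes were compared per length, as CPM per kb of the longest coding transcript in GENCODE M21. In control, Max stood first at 52.3 ± 4.80 CPM per kb, followed by Mlx at 38.5 ± 3.76 and Myc at 27.4 ± 4.56 (SD, n = 3). Then came Mxd3 at 19.3 ± 2.38, Mnt at 11.4 ± 1.26, Mxi1 at 8.41 ± 2.14, Mxd4 at 5.28 ± 0.767 and Mxd1 at 4.04 ± 0.436 CPM per kb. Of the neighbours in this order, only Mxi1 and Mxd4 overlapped between samples. The order depends on the length used, an alternative added after the data were seen. With all annotated exons joined, Mlx (37.9 CPM per kb) stood above Max (28.2), Mnt (11.3) above Mxd3 (10.8) and Mxd1 (2.66) above Mxd4 (2.41) in control. By this length Myc (28.4 CPM per kb in SFN samples and 28.4 in combination samples) also stood above Max (26.0 and 26.1). In combination samples Mxd4 reached 7.56 ± 0.398 and Mxi1 was at 5.77 ± 0.410 CPM per kb of coding transcript. With joined exons Mxi1 (4.26 CPM per kb) still stood above Mxd4 (3.45), so the change of order depends on the length too.

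**Figure D4:**
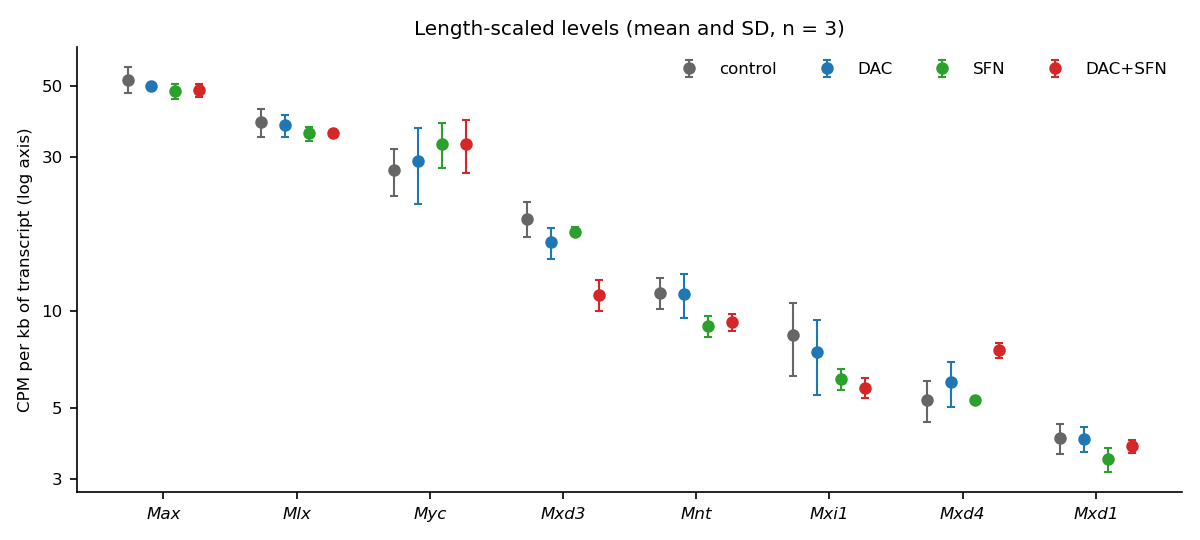
CPM per kb of the longest coding transcript (y axis, log scale) of the 8 members (x axis, in the order of control), with a point for the mean of each group and SD as whiskers (n = 3). Max stood highest, and the place of Mxd4 relative to Mxi1 changed with the combination treatment.

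The genes with the pattern most like Mxd3, Mxd4 and Mnt, the 3 members with the smallest p-values, were taken by Pearson correlation of log2 CPM over the 12 samples after the replicate means were removed. For Mxd3 these were Fen1 (r = 0.967), Cenpa (r = 0.964) and Cdca8 (r = 0.963), genes of DNA replication, the centromere and chromosome segregation. With the combination treatment Fen1 had a log2 fold change of -0.34 (adjusted p = 0.000281), Cenpa of -0.44 (adjusted p = 0.000131) and Cdca8 of -0.44 (adjusted p = 0.000284 by edgeR). For Mxd4 they were the transcription factor genes Foxk1 (r = 0.955) and Stat3 (r = 0.943) and the transcript Zfhx2os (r = 0.942). Stat3 rose by 0.36 on the log2 scale with the combination treatment (adjusted p = 0.000690). For Mnt they were the lysosomal enzyme gene Naglu (r = 0.981), Hap1 (r = 0.970) and the proteasome gene Psmd4 (r = 0.968). The 12 points share 4 treatments, and the genes were the extremes of 11638, so these values only describe the patterns.

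The genes that act with the network were counted from lists. Of the other partners, Mga passed in no comparison, Mlxipl (ChREBP) had at most 1 count in any library, and Mlxip (MondoA) rose by 0.19 with the combination treatment (SE 0.06, adjusted p = 0.0256 by edgeR). Txnip, which MondoA and MLX activate when glucose is plentiful, fell by 0.45 on the log2 scale with SFN (SE 0.12, adjusted p = 0.0239), by 0.45 when SFN was added to DAC (adjusted p = 0.0227) and by 0.37 with the combination treatment compared to control (SE 0.12, adjusted p = 0.0345). Arrdc4, another target of this pair, had 0 counts in all 12 libraries.

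Of 16 cofactors of MYC and of its antagonists, 1 fell with SFN, where 5.65% of all genes did. This was Kat5, a histone acetyltransferase gene (log2 fold change -0.26, SE 0.08, adjusted p = 0.0445). Of the 16, 4 fell and 1 rose with the combination treatment, where 14.7% of all genes fell and 17% rose. Those that fell included Sin3a, the scaffold of the corepressor that MXD proteins recruit (-0.23, SE 0.06, adjusted p = 0.00791), and Wdr5 (-0.17, SE 0.06, adjusted p = 0.0353 by edgeR). Actl6a and Hdac2 also fell, by 0.29 (adjusted p = 0.00182) and 0.21 (adjusted p = 0.0107) on the log2 scale, both named after their values were seen. Zbtb17, which encodes the MYC partner MIZ1, had a log2 fold change of 0.17 (adjusted p = 0.0861). The median of the list was -0.03, and that of all genes was 0.01.

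Of 9 genes for the turnover of MYC protein, 2 fell with SFN and, with the combination treatment, 4 fell and 2 rose. Of all genes, 5.65% fell with SFN, and 14.7% fell and 17% rose with the combination. Usp28, which encodes a deubiquitinase of MYC, fell by 0.27 with SFN (SE 0.08, adjusted p = 0.0395) and by 0.49 with the combination (SE 0.08, adjusted p = 0.000602 by edgeR). Ppp2r5a, a subunit gene of phosphatase PP2A, fell by 0.20 (adjusted p = 0.0317) and by 0.31 (adjusted p = 0.00124). Skp2, a ubiquitin ligase subunit gene, fell by 0.45 with the combination (SE 0.08, adjusted p = 0.000589). Aurka, a mitotic kinase gene, fell by 0.28 (adjusted p = 0.00241) and Fbxw7, the ligase subunit that marks MYC for degradation, rose by 0.24 (adjusted p = 0.0209), both named after their values were seen.

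Of 27 known targets of MYC in ribosome production, 2 rose with SFN and 0 fell, a share near the 8.27% of all genes that rose. The estimate was above 0 in 24 of the 27 under DAC, in 25 under SFN and in 22 under the combination, beside 51.9%, 51% and 51.4% of all genes, so this count differed little between the treatments. The median log2 fold change was 0.04 with DAC, beside 0.00 for all genes, and 0.14 with SFN, beside 0.00 for all genes. In combination samples 7 rose and 1 fell, where 17% of all genes rose and 14.7% fell, and the median was 0.13, beside 0.01 for all genes. Wdr12 rose by 0.23 with SFN (SE 0.06, adjusted p = 0.0177) and Nop2 by 0.26 (SE 0.08, adjusted p = 0.0371 by edgeR), both genes for assembly of the large ribosomal subunit. Bop1 rose in combination samples by 0.39 (SE 0.098, adjusted p = 0.00736) and Grwd1 by 0.36 (SE 0.09, adjusted p = 0.00696). The gene that fell was Npm1, a nucleolar chaperone gene (-0.23, adjusted p = 0.0222), named after its value was seen. With DAC 0 of 27 were called by edgeR. The list was not tested as a set.

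Of 18 targets in metabolism and growth, 3 rose and 1 fell with SFN, and 2 rose and 3 fell with the combination treatment. The shares of all genes were 8.27% up and 5.65% down with SFN and 17% up and 14.7% down with the combination. Ccnd2, the cyclin D2 gene, had a mean of 863 ± 79.4 CPM in control, and this was 1014 ± 132 CPM in DAC samples, 1213 ± 242 CPM in SFN samples and 1527 ± 170 CPM in combination samples (SD, n = 3). It rose by 0.48 with SFN (SE 0.07, adjusted p = 0.000383) and by 0.82 with the combination (SE 0.07, adjusted p = 2.34e-06 by edgeR). Shmt2, which encodes the mitochondrial serine hydroxymethyltransferase, fell from 401 ± 30.8 CPM to 260 ± 7.45 with SFN and 255 ± 9.53 with the combination. The log2 fold change of Shmt2 under SFN was -0.62 (SE 0.06, adjusted p = 1.78e-05), and that under the combination was -0.65 (SE 0.06, adjusted p = 4.53e-06). Nme1 and the transferrin receptor gene Tfrc rose with SFN by 0.21 (adjusted p = 0.0167) and 0.24 (adjusted p = 0.0293). The median of the list was 0.08 with SFN and -0.01 with the combination, so its members moved in both directions.

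Of 6 genes that MYC represses through MIZ1, 4 were tested, and with the combination treatment 2 rose and 2 fell, where 17% of all genes rose and 14.7% fell. Cdkn1a, which encodes the CDK inhibitor p21, rose by 0.60 with DAC (SE 0.11, adjusted p = 0.0441), by 0.96 with SFN (SE 0.11, adjusted p = 6.27e-05) and by 1.36 with the combination (SE 0.11, adjusted p = 1.91e-06). Ndrg1, a stress response gene, fell by 0.81 with SFN (SE 0.08, adjusted p = 1.70e-05) and by 0.90 with the combination (SE 0.08, adjusted p = 3.12e-06 by edgeR). Cdkn1b, which encodes the CDK inhibitor p27, fell by 0.46 and 0.50 in the same comparisons, and Gadd45a rose by 0.50 with the combination (adjusted p = 0.0111).

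**Figure D5:**
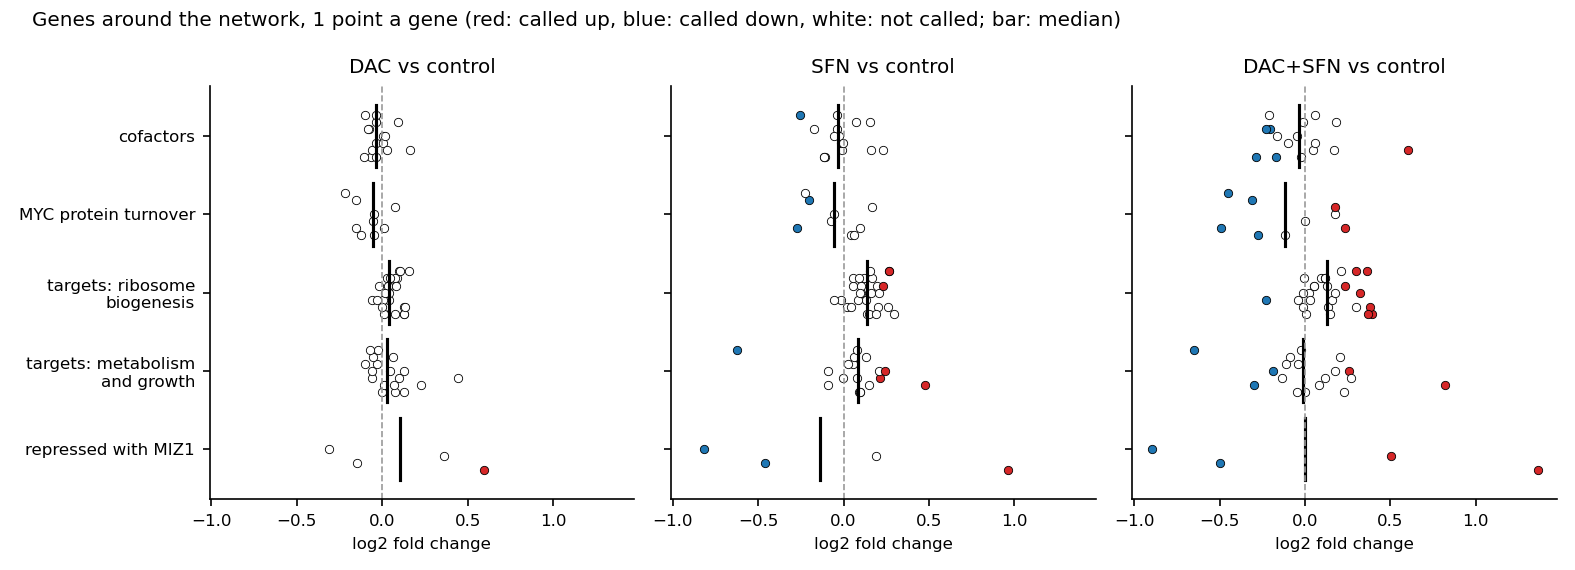
Log2 fold changes (x axis) of the tested genes of 5 lists around the network (y axis) with DAC, SFN and DAC+SFN compared to control. A point is a gene (red called up, blue called down, open not called) and the bar is the median of the list, which was 0.14 with SFN and 0.13 with DAC+SFN for the targets in ribosome biogenesis.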

How the data were processed

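RNA of 12 samples was sequenced after a stranded, polyA-selected library preparation. Per the labels and the methods of the study, the authors used Trimmomatic 0.38 for trimming, TopHat2 2.1.1 for alignment to mm10 and HTSeq for counting of uniquely aligned reads per gene. Depth was 15880957 to 27291436 counts per library. The deposited counts are whole numbers per gene symbol without normalization, and discarding multimapped reads lowers counts of genes with close copies. The gene annotation and the strand setting are not given in the sources used here.

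Groups and replicate numbers came from the sample titles. Genes were kept at 1 CPM or more in 3 or more libraries, scaled by TMM and tested with glmQLFTest in edgeR 4.0.16 (R 4.3.3), two-sided, with the replicate number as a blocking term for the batch correction of the methods. After group means were removed, same-numbered samples of different groups had a correlation of 0.270 to 0.732 over 18 pairs, and the library numbers follow the replicate number. SE was obtained from the fold change and F. No 2 replicates were copies (chi-square per gene 12.6 to 34.3). DESeq2 1.42.0 was an alternative. Positions and lengths are from GENCODE M21 (mm10) and promoters from RefSeq (GRCm38.p6). Figures were drawn with matplotlib 3.10.9.

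The members and lists were chosen with earlier results of these data known. The text names all members, each gene of lists of up to 3, the 4 genes of longer lists with the smallest p in SFN compared to control, and genes marked as named after their values were seen. Some genes of the lists are counted but not reported here by name. Alternatives were DESeq2's size factors and test, 2 other count filters, no replicate block, only the groups compared, a robust fit, 12 fits without 1 sample each and the fold threshold of the study.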

Additional observations from a re-analysis of the deposited data

How the results depend on the processing

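No called fold change of a member turned its direction under any alternative run, 30 calls of members were lost and 17 gained over all fits. The number of called members with SFN was 1 and became 2 with DESeq2's size factors, with DESeq2 and without a count filter, 3 with only the groups compared and 0 without the replicate block. Without the replicate block, 2 members in place of 4 were called with the combination compared to control, 0 in place of 3 compared to DAC and 0 in place of 2 compared to SFN. With only the groups compared, 1 was called compared to DAC. With the fold change above 2 required as well, 0 were called with SFN, 0 with the combination compared to control, 0 compared to DAC and 0 compared to SFN. Leaving out 1 sample at a time gave 0 to 3 called members with SFN, 3 to 5 with the combination compared to control, 1 to 3 compared to DAC and 0 to 2 compared to SFN. The lowest numbers came without SFN replicate 3 for SFN, without combination replicate 1 compared to DAC, and without SFN replicate 1 or 3 or combination replicate 1 compared to SFN, where 1 was called without combination replicate 2. With SFN, 3 were called without combination replicate 1 and 2 without control replicate 2, DAC replicate 2 or 3, or combination replicate 2 or 3.

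Fold changes near 0 that were not called changed their sign. Compared to SFN, the combination gave log2 fold changes of Myc of -0.0078 without a count filter, -0.0051 without the replicate block and -0.012 with only the groups compared, of Max of -0.0062 and of Mlx of -0.0094 without a count filter. Mxd4 with SFN was at -0.0013 without a count filter and at -5.12e-05 without the replicate block. With 1 sample left out, the combination compared to SFN ranged from -0.23 to 0.12 for Myc, -0.010 to 0.031 for Max, -0.035 to 0.067 for Mlx, -0.021 to 0.10 for Mnt and -0.32 to 0.058 for Mxi1. With DAC the ranges were -0.025 to 0.22 for Myc, -0.066 to 0.028 for Mlx, -0.11 to 0.039 for Mnt and -0.070 to 0.097 for Mxd1. Mxd4 with SFN ranged from -0.063 to 0.090, Mxd1 with the combination compared to control from -0.15 to 0.0085 and Myc compared to DAC from -0.037 to 0.31. The interaction ranged from -0.31 to 0.040 for Myc, -0.023 to 0.098 for Mlx, -0.0056 to 0.15 for Mnt and -0.16 to 0.22 for Mxi1. The cause of these changes of sign was not tested. Other values that were not called kept their sign but varied in size. Mlx ranged from -0.17 to -0.054 with SFN and from -0.15 to -0.050 with the combination compared to control. With SFN, Mxd3 ranged from -0.23 to -0.039 and Mxd1 from -0.28 to -0.12, and with DAC, Mxd4 ranged from 0.082 to 0.29. With 3 samples a group, the SE differed by member, from 0.055 for Max to 0.14 for Mxi1 in the combination compared to control. No single size of change was thus the limit for a call, and Mxi1 at -0.43 with SFN was not called. A member that was not called can still have changed.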
